A study of Mus musculus with 24 samples.

Results

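The libraries compared here are 3 of macrophages sorted from dura mater, the tough outermost layer of the meninges, and 3 of macrophages sorted from diaphragm, the breathing muscle, and all 6 were rich in Ccr2 and MHC class II RNA. They are 6 of the 16 libraries of the series that were analysed, and they were selected on measured levels of Ccr2 and of MHC class II genes. Within dura the 3 libraries marked P6 (1P6, 3P6 and 4P6) had the most Ccr2 and MHC class II RNA of 9 libraries, and within diaphragm those numbered 3, 6 and 9 had the most of 7. All animals were wild-type C57BL/6 mice of 17 weeks at steady state in both tissues, so the groups differ in tissue and share genotype, strain, age and condition. The series title names RAG-1 deficient mice given T cells, which the labels of these samples do not mention. The labels divide each tissue into macrophage subsets named C1, C2 and C3, but the names of the data columns match none of them, so each library was tied to its tissue only. The sources used here give neither the antibodies of the sort nor the number of animals behind a library, and p-values therefore measure the spread between these libraries, which may be technical.

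Macrophages of barrier and connective tissues are a mixture of long-lived resident cells and of cells that monocytes replace. CCR2 is the receptor through which monocytes follow the chemokine CCL2 out of the bone marrow and into tissues, and it stays on macrophages that arose from them recently. MHC class II molecules display peptides to CD4 T cells, and the invariant chain Cd74 guides them to the compartment where peptides are loaded. CX3CR1, the fractalkine receptor, marks microglia and many tissue macrophages, CCR7 steers activated dendritic cells to lymph nodes, and Retnla encodes a secreted protein induced by IL-4 and IL-13.

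Levels are in CPM, a gene's share of the counts of its library times 1000000 after TMM scaling, and they are not divided by gene length. The genes that chose the libraries are given as levels only. Ccr2 stood at 1630, 1460 and 1510 CPM in dura 1P6, 3P6 and 4P6, and at 799, 1030 and 1030 CPM in diaphragm 3, 6 and 9. The 3 dural values lay above the 3 diaphragm values, and the lowest value on either side was far from the next library of the same tissue, which had 278 CPM in dura and 129 CPM in diaphragm. Cd74 stood at 32200, 33800 and 32100 CPM in dura and at 38700, 38400 and 35400 CPM in diaphragm. The summed level of 11 MHC class II genes was 80100 to 84000 CPM in dura and 85500 to 90400 CPM in diaphragm, against 5390 to 53600 CPM in the other dural and 1940 to 45400 CPM in the other diaphragm libraries. Of these genes H2-Eb2, with 3.08, 3.42 and 3.7 CPM in dura and 22.9, 17.3 and 23.3 CPM in diaphragm, stood furthest apart between the tissues.

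The macrophage label was checked against general macrophage genes. All 16 genes of that list were measured, and their summed level was 29400 to 30800 CPM in dura and 31100 to 32200 CPM in diaphragm. Adgre1, which encodes F4/80, stood at 1650, 1760 and 1780 CPM in dura and at 1170, 1100 and 1200 CPM in diaphragm. Csf1r, the receptor for the macrophage growth factor CSF1, stood at 3860, 4110 and 4270 CPM in dura and at 3200, 3140 and 3450 CPM in diaphragm. Ly6c2, a marker of classical monocytes, was low everywhere, with 7.09, 10.1 and 5.05 CPM in dura and 5.01, 24.5 and 17.6 CPM in diaphragm, and did not pass the test (edgeR adjusted p = 0.148).

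**Figure D1:**
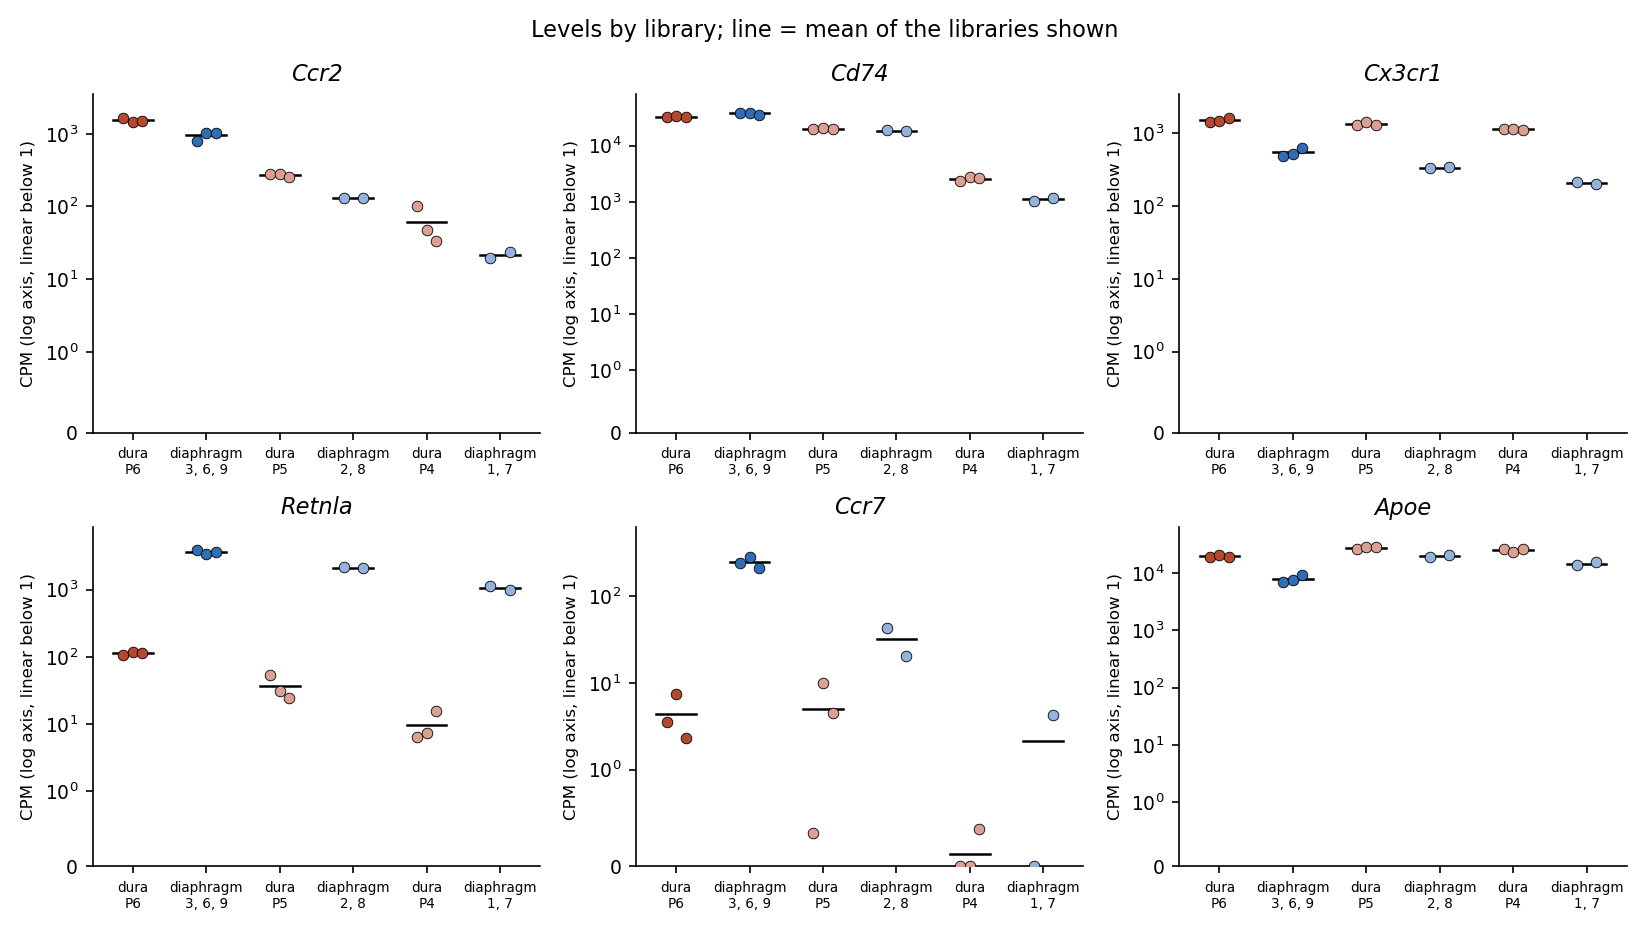
Level of 6 genes in each of the 16 libraries, in CPM on a log axis that is linear below 1, with the mean of each set as a line. Ccr2 and Cd74 chose the libraries and are highest in dura P6 and diaphragm 3, 6 and 9, while Retnla and Ccr7 are far lower in dura P6 than in diaphragm 3, 6 and 9, and Cx3cr1 and Apoe are higher in dura P6 than in diaphragm 3, 6 and 9.

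Both tissues shared the features used to choose them and differed widely elsewhere. At an adjusted p of 0.05 in the quasi-likelihood test of edgeR, 2865 of 12618 genes (22.7%) were called, 1123 (8.9%) higher in dura and 1742 (13.8%) lower. With a log2 fold change of at least 1 in size as well, 1237 (9.8%) were called. Over all genes the log2 fold change, dura minus diaphragm, had a median of 0.03. The 2 sets of libraries did not overlap in 5200 genes (41.2%). Lack of overlap held for 1118 of the 1123 called genes higher in dura and 1725 of the 1742 lower, so it adds little to a call. With library totals in place of TMM factors the median moved to 0.215, and 62.9% of the called genes were then higher in dura, against 39.2% in the main fit. Directions below are relative to the TMM scale. Library totals were 11775166 to 14593506 counts in dura and 11053351 to 30132295 in diaphragm, and the 10 most abundant genes took 13.3% to 14.4% of the counts of each. Tissue cannot be told apart from anything else that differed in how the tissues were taken and digested, since the preparation given in the labels is that of dura. In bulk RNA, fewer cells of a type and less RNA per cell cannot be told apart.

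**Figure D2:**
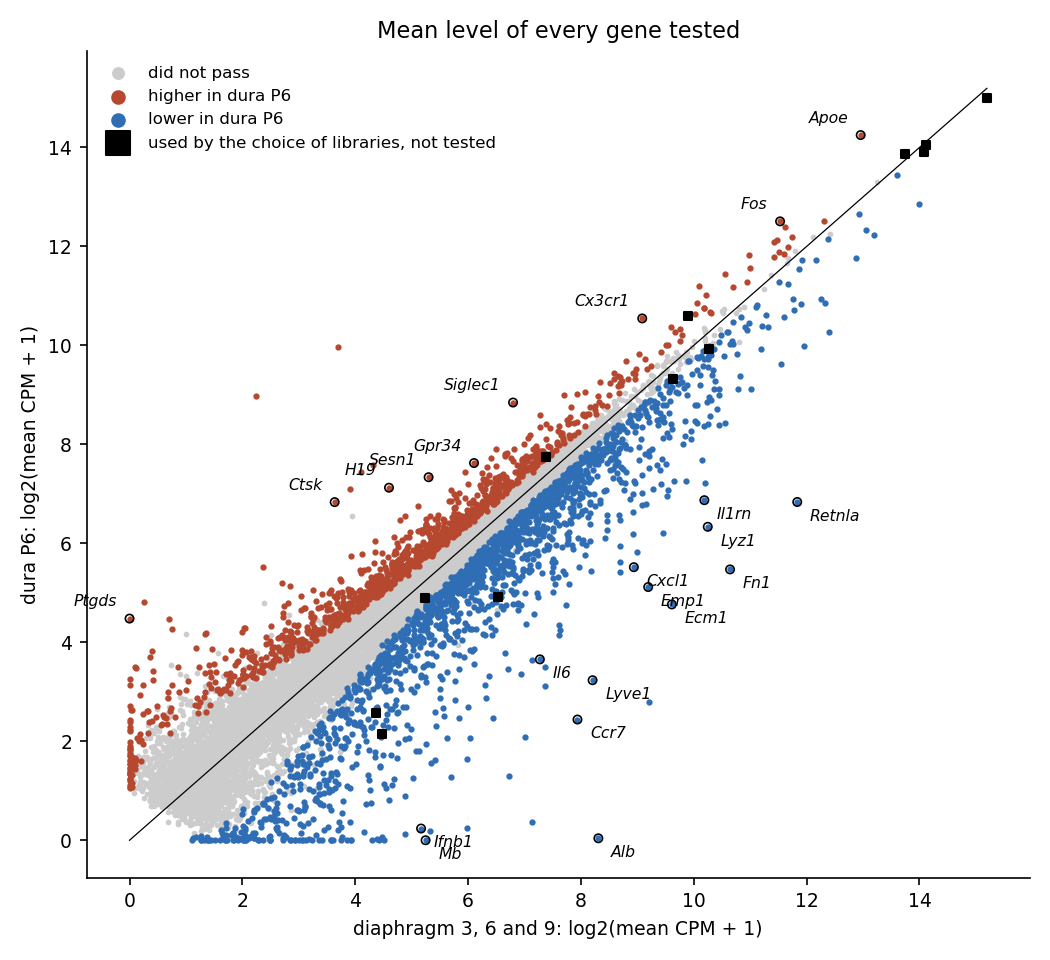
Mean level of every gene tested in diaphragm 3, 6 and 9 (x axis) and dura P6 (y axis), both as log2(mean CPM + 1), with genes higher in dura in red, lower in blue and genes used to choose the libraries as black squares. Retnla, Fn1, Ecm1 and Ccr7 lie far below the diagonal, and the genes furthest above it include Ctsk, H19 and Siglec1.

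The 3 genes named with Ccr2 as marks of these libraries were chosen with earlier results of these data known. Retnla (ENSMUSG00000061100, GRCm38 chr16:48842551-48844461, plus strand) stood at 106, 118 and 116 CPM in dura and at 3890, 3380 and 3680 CPM in diaphragm. The sets lay far apart, a 32.6-fold difference (log2 fold change -5.03 ± 0.0896 SE, 3 libraries a side, edgeR adjusted p = 1.2e-10). Diaphragm libraries outside the comparison also held 976 to 2140 CPM, and the other dural libraries 6.34 to 54.2 CPM. Ccr7 (ENSMUSG00000037944, chr11:99144196-99155077, minus strand) stood at 3.58, 7.39 and 2.29 CPM in dura and at 240, 284 and 208 CPM in diaphragm. Its log2 fold change was -5.81 ± 0.316 (edgeR adjusted p = 5.25e-07). Elsewhere in the series Ccr7 reached at most 10 CPM in dura and 43.1 CPM in diaphragm. Cx3cr1 (ENSMUSG00000052336, chr9:119901616-120069879, minus strand) went the other way, with 1430, 1460 and 1590 CPM in dura and 491, 509 and 628 CPM in diaphragm. Its log2 fold change was 1.45 ± 0.101 (edgeR adjusted p = 2.66e-06), and all other dural libraries (1110 to 1400 CPM) also lay above all other diaphragm libraries (199 to 340 CPM).

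Among genes with at least 20 CPM on both sides, the matrix genes Fn1 and Ecm1 stood furthest below with Retnla. Fn1, which encodes fibronectin, stood at 37.7, 45.5 and 47.1 CPM in dura and at 1790, 1740 and 1270 CPM in diaphragm, a 37.1-fold difference (edgeR adjusted p = 8.3e-09). Ecm1, extracellular matrix protein 1, stood at 28.3, 28.5 and 21.8 CPM in dura and at 901, 714 and 729 CPM in diaphragm, a 30.2-fold difference (edgeR adjusted p = 8.3e-09). Neither gene overlapped between the tissues, which the ranking required. Of 25 genes of the integrin, matrix and protease list, 18 were lower in dura and 3 higher, with a median log2 fold change of -1.69. Lower with them were Emp1, a membrane protein of epithelial and other cells (-4.13), the matrix protease Mmp19 (-4.25) and the integrin chain Itgal (-1.25). The 3 that were higher were Itga6, an integrin chain that binds laminin (1.03), the gelatinase Mmp9 (0.97) and the collagen-cleaving protease Ctsk (3.46). Ctsk varied within diaphragm, with 2.45, 30.4 and 1.41 CPM in diaphragm 3, 6 and 9 against 116, 138 and 84.5 CPM in dura.

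Of the genes higher in dura at that level, H19, an imprinted long non-coding RNA, differed most. It stood at 125, 162 and 129 CPM in dura and at 36.1, 21.3 and 12.2 CPM in diaphragm, 5.86-fold apart (log2 fold change 2.55 ± 0.308, edgeR adjusted p = 0.000143). Siglec1, the sialic acid receptor CD169 of resident macrophages, stood at 444, 465 and 468 CPM in dura and at 114, 86.4 and 130 CPM in diaphragm, a 4.12-fold difference. Sesn1, a stress-induced regulator of mTORC1, had 162, 141 and 179 CPM in dura and 25.4, 36.8 and 53 CPM in diaphragm. The log2 fold changes of the others were 1.68 for Nfxl1, 1.67 for the matrix protein gene Mgp, 1.66 for Arhgap19, 1.48 for the lysoplasmalogenase gene Tmem86a and 1.44 for the copper carrier Cp. The diaphragm values of Mgp were uneven at 54.2, 10.8 and 15 CPM, and its call was lost without dura 1P6, dura 3P6, diaphragm 6 or diaphragm 9 and with DESeq2 (highest adjusted p 0.0966).

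Genes known from microglia, the macrophages of the brain itself, were higher in dura. Of 12 listed genes 10 were tested and 8 were higher, with a median log2 fold change of 1.05, and the other 2 (Fcrls and Sparc) did not pass. Gpr34, a lysophospholipid receptor, stood at 209, 187 and 192 CPM in dura and at 61.8, 68 and 73.7 CPM in diaphragm (log2 fold change 1.52). Tmem119 stood at 133, 125 and 147 CPM against 38.8, 49 and 64.6 CPM (log2 fold change 1.40). No value of these genes overlapped between the tissues, as in nearly all called genes. Sall1, a transcription factor that defines microglia, was too low to be tested. The purine receptor P2ry13 was also higher (1.15), and Siglech by 0.98, a call that was lost without any 1 of dura 1P6, 3P6 or 4P6 or without diaphragm 3.

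Genes of LYVE1-type resident macrophages, which lie along vessels, were divided. Of 19 tested, 6 were higher in dura and 8 lower, and their summed level was 11400 to 12300 CPM in dura and 8470 to 9430 CPM in diaphragm, below every other library of the series. Lyve1, the hyaluronan receptor that names the type, stood at 4.84, 5.92 and 14.5 CPM in dura and at 313, 225 and 345 CPM in diaphragm (log2 fold change -5.12 ± 0.344, edgeR adjusted p = 2.15e-06). The phosphatidylserine receptor Timd4 (-3.88), the ficolin Fcna (-3.61), the eotaxin Ccl24 (-2.33) and the haemoglobin scavenger receptor Cd163 (-1.76) were lower with it. In the opposite direction, the mannose receptor Mrc1 stood at 2070, 2010 and 2160 CPM in dura and at 1240, 1200 and 1140 CPM in diaphragm (log2 fold change 0.79). The scavenger receptor Stab1 (0.77), the selenium carrier Selenop (0.76), Igfbp4 (0.65) and the ligand Gas6 (0.46) were higher too. The sets of values of each of these 10 genes did not overlap, as in nearly all called genes.

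Most Toll-like receptor genes that were called were higher in dura, while Tlr2, the co-receptor gene Cd14 and 3 adaptor genes (Myd88, Ticam1 and Ticam2) were lower. Of 18 Toll-like receptor and adaptor genes, 7 were higher and 5 lower, with a median log2 fold change of 0.41. Tlr7, an endosomal receptor for single-stranded RNA, stood at 210, 214 and 248 CPM in dura and at 103, 91.9 and 108 CPM in diaphragm (log2 fold change 1.14 ± 0.106). Tlr13, which senses bacterial ribosomal RNA, had a log2 fold change of 1.18 and Tlr3, which senses double-stranded RNA, 1.52. Tlr1, a surface receptor for lipopeptides, was also higher (1.24), as was Tlr4, the receptor for lipopolysaccharide, with 85.6, 66.4 and 83.7 CPM in dura and 31.3, 35.8 and 49.9 CPM in diaphragm (1.00). Cd14, the co-receptor for lipopolysaccharide, went the other way with 1570, 2260 and 1740 CPM in dura and 5530, 5360 and 4560 CPM in diaphragm (log2 fold change -1.49 ± 0.124, edgeR adjusted p = 9.21e-06). Tlr2, the partner of Tlr1, was lower too, with a log2 fold change of -0.85. The adaptor genes Ticam1 (-0.73) and Ticam2 (-0.72) were lower as well, and the call of Ticam2 was lost with library totals and without dura 1P6, dura 3P6 or diaphragm 6.

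Interferon genes did not move as one. Of 25 tested, 8 were higher in dura and 4 lower, and 5 were higher without dura 4P6. Ifnb1, which encodes interferon beta, was close to absent in dura (0, 0.467 and 0.0673 CPM) and present in diaphragm (26.7, 34.6 and 43.4 CPM). Isg15, a ubiquitin-like protein, stood at 27.9, 30.8 and 33.1 CPM in dura and at 122, 109 and 105 CPM in diaphragm (log2 fold change -1.88 ± 0.125). The RNA-binding Ifit1 (-2.17) and Oasl1 (-2.31) were lower with them. Ifit3 in contrast stood at 35.9, 35.4 and 41.5 CPM in dura and at 7.3, 17.2 and 12.4 CPM in diaphragm (log2 fold change 1.62 ± 0.271), and Ifit2 (0.94), Oasl2 (1.15) and Ifi44 (2.01) were higher as well. Family members therefore lay on opposite sides, Ifit1 against Ifit2 and Ifit3, and Oasl1 against Oasl2. The call of Ifi44 was lost without dura 4P6 and without diaphragm 6 (highest adjusted p 0.0771).

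**Figure D3:**
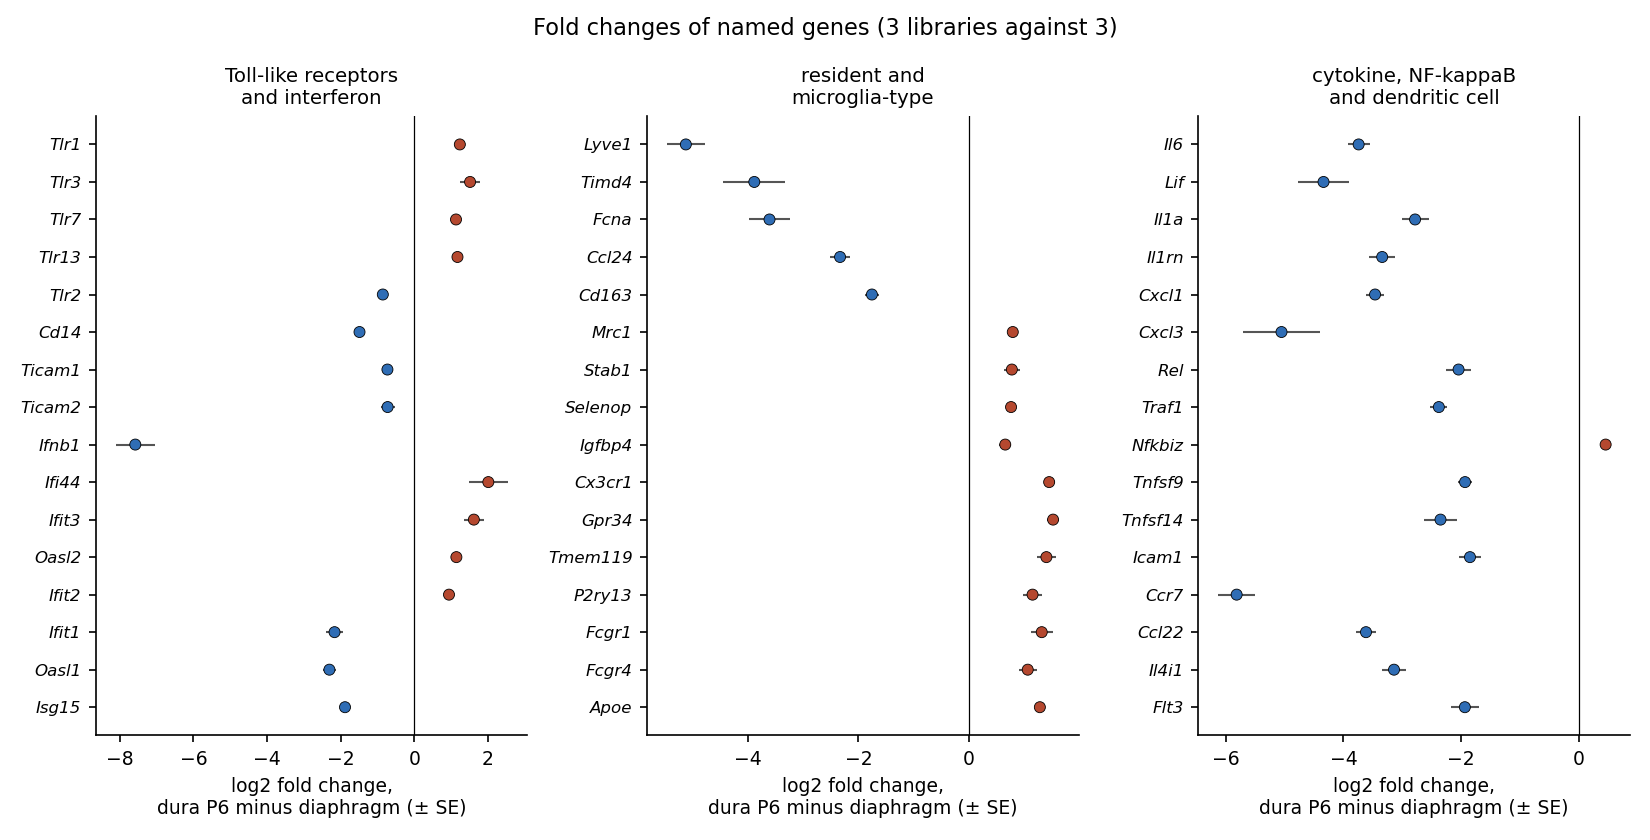
Log2 fold change of named genes, dura P6 minus diaphragm 3, 6 and 9, with its standard error as a bar, 3 libraries a side, in 3 panels by role. Toll-like receptor and interferon genes lie on both sides of 0, as do the LYVE1-type genes, whereas in the panel of cytokine, NF-kappaB and dendritic cell genes only Nfkbiz lies above 0. The panel leaves out the dendritic cell genes Irf8 and Sirpa, which were higher in dura.

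Inflammatory cytokines and chemokines were lower in dura. Of 17 cytokine genes tested, 12 were lower with a median log2 fold change of -1.96, and the other 5 (Il18, Il27, Ebi3, Osm and Il15) did not pass. Il1b, the most abundant, stood at 747, 1390 and 907 CPM in dura and at 3730, 4370 and 3810 CPM in diaphragm. Il1rn, which encodes the receptor antagonist of IL-1, stood at 77.3, 160 and 111 CPM in dura and at 1140, 1240 and 1120 CPM in diaphragm (log2 fold change -3.34 ± 0.216, edgeR adjusted p = 1.72e-06). The agonist and the antagonist of IL-1 signalling were thus lower together in dura. Il6 stood at 10.4, 14.4 and 9.96 CPM in dura and at 132, 184 and 144 CPM in diaphragm, a 13.4-fold difference (edgeR adjusted p = 3.03e-07). Tnf stood at 224, 304 and 293 CPM against 866, 978 and 1110 CPM. Of 11 CXC chemokine genes 6 were lower, among them Cxcl1 and Cxcl2, which draw neutrophils, Cxcl3 and Cxcl10. Cxcl1 stood at 35.2, 56.4 and 43 CPM in dura and at 493, 508 and 468 CPM in diaphragm (log2 fold change -3.46 ± 0.16). Cxcl1, Cxcl2 and Cxcl3 resemble one another in sequence, and reads they share make their separate values less certain.

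Of 13 CC chemokine genes, 9 were lower in dura and 2 higher. Ccl22, a ligand of CCR4 made by dendritic cells, stood at 9.75, 13.8 and 11 CPM in dura and at 149, 155 and 117 CPM in diaphragm (log2 fold change -3.62). Ccl12 and Ccl8 were the ones higher in dura. Ccl12, a ligand of CCR2 in mice, stood at 220, 205 and 209 CPM in dura and at 76.8, 88.8 and 85.9 CPM in diaphragm (log2 fold change 1.32 ± 0.0991), while Ccl8 stood at 27.5, 23 and 18.4 CPM against 3.37, 7.11 and 6.18 CPM. The chemoattractant receptors split 7 higher to 5 lower of 17. Besides Cx3cr1 these included the sphingosine phosphate receptor S1pr2 (1.71), the oxysterol receptor Gpr183 (1.19) and Cxcr3 (1.69, lost without dura 1P6 or dura 4P6) among those higher. The CXCL12 receptor Cxcr4 (-0.93), the complement receptor C5ar1 (-1.24) and Ccr1 (-0.64, lost without dura 1P6) were lower.

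NF-kappaB is a family of transcription factors held in the cytoplasm by inhibitors whose own genes it induces, together with many cytokine and chemokine genes. Of 17 genes of this family, its inhibitors and its regulators, 15 were lower in dura and 1 higher, with a median log2 fold change of -1.18. Rel, a subunit of the family, stood at 39.5, 86.1 and 64.5 CPM in dura and at 246, 274 and 257 CPM in diaphragm (log2 fold change -2.04 ± 0.218, edgeR adjusted p = 5.87e-05). The adaptor Traf1 (-2.38), the nuclear co-regulator Bcl3 (-1.87) and Tnip3 (-3.32), which binds the deubiquitinase A20, were lower with it. Subunits and inhibitors shared the direction. Nfkbia, the first inhibitor, stood at 1680, 1610 and 1720 CPM in dura and at 3680, 3550 and 3260 CPM in diaphragm. Nfkbiz, a nuclear member of the inhibitor family, was the one that was higher, with 2110, 2290 and 2530 CPM against 1610, 1720 and 1670 CPM.

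The promoters of Il6, Cxcl1 and Cxcl2, which were lower in dura, are shown because they hold matches of the NF-kappaB motif. The same search in Icam1, Ccr7, Retnla and Cx3cr1 gave no match to print. The part of NF-kappaB in these differences was not tested. Each line is 100 bases from the region before the start of the gene in RefSeq, build GRCm38.p6, chromosome 5, plus strand. The Il6 line ends at the start, and the Cxcl1 and Cxcl2 lines end short of it. Matches of the NF-kappaB motif (GGG, any 3 bases, TTCC, searched on both strands) are in capitals. Matches overlap where the capitals run on.
Il6, chr5:30013014-30013113: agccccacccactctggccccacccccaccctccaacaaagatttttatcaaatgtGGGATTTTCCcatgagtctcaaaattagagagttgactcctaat
Cxcl1, chr5:90891135-90891234: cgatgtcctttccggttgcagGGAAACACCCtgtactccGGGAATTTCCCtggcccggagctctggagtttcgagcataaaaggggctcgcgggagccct
Cxcl2, chr5:90903781-90903880: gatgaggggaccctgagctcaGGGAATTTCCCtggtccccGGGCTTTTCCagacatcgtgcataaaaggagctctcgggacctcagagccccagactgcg

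In the Il6 line the match begins 44 bases before the start of the gene, and the Cxcl1 and Cxcl2 lines hold 3 matches each. The match nearest the start begins 70 bases before it in Cxcl1 and 78 bases before it in Cxcl2. In windows of 250 bases before to 50 after a start, the motif was in 5.56% of 32851 promoters. By gene it was in 6.31% of 27025 genes, in 4 of 9 CXC chemokine genes with a promoter in the table (Cxcl1, Cxcl2, Cxcl3 and Cxcl10), in 7 of 14 NF-kappaB genes and in 3 of 11 cytokine genes (Il1rn, Il6 and Csf1). Of the co-stimulatory genes, 9 of 15 of which were lower in dura, 0 of 8 with a promoter in the table had it. Not all genes with the motif moved alike: Cyld, a deubiquitinase, has it and did not pass the test. A match describes the letters and does not show binding.

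Genes of activated dendritic cells were lower in dura together with Ccr7. Of 19 genes of the mature dendritic cell list, 15 were lower with a median log2 fold change of -1.79. Fscn1, which encodes the actin bundler fascin, stood at 17.3, 16.4 and 16.6 CPM in dura and at 88.9, 88.8 and 77.1 CPM in diaphragm. Il4i1, an amino acid oxidase, had a log2 fold change of -3.14, and Ccl17 one of -4.38 with uneven diaphragm values (70.1, 34.8 and 20.6 CPM) and a call that was lost with limma-voom (adjusted p 0.0551). Of 15 conventional dendritic cell genes, 11 were lower and 2 higher, and 7 were lower with a filter of at least 10 CPM in 3 libraries. The 2 higher were Irf8 (0.56) and Sirpa (0.31), while Clec9a (0.74) and Kmo (0.41) did not pass. Flt3, the growth factor receptor of dendritic cell precursors, stood at 8.25, 10.7 and 12.9 CPM in dura and at 40.8, 50.3 and 29.9 CPM in diaphragm. Zbtb46, a transcription factor of conventional dendritic cells, stood at 4.17, 3.27 and 4.04 CPM against 11.7, 14.1 and 10.9 CPM, and Xcr1 at 1.58, 1.64 and 1.55 CPM against 9.64, 14 and 11 CPM. Itgax, which encodes CD11c, stood at 168, 198 and 154 CPM in dura and at 436, 438 and 465 CPM in diaphragm. The summed level of the conventional dendritic cell list was 1740 to 1960 CPM in dura and 2580 to 2640 CPM in diaphragm, and the part of such cells in the other differences was not tested.

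Of 15 co-stimulatory genes tested, which pass signals from antigen-presenting cells to T cells, 9 were lower and 2 higher. Cd40 stood at 41.8, 57.8 and 44.6 CPM in dura and at 194, 173 and 166 CPM in diaphragm (log2 fold change -1.90). Tnfsf9 (-1.93), Tnfsf14 (-2.35) and the adhesion ligand Icam1 (-1.85) were lower as well. The inhibitory Vsir was higher (0.44), while Cd86 stood at 137, 148 and 162 CPM in dura and at 134, 148 and 174 CPM in diaphragm and did not pass. Of 17 classical monocyte genes, 10 were lower, with Plac8 at 9.25, 13.5 and 7.2 CPM in dura and at 76.2, 102 and 133 CPM in diaphragm and the lectin Clec4e at 15, 18.8 and 16.1 CPM against 160, 221 and 202 CPM. Ms4a4c (0.67) and Lst1 (0.66) were higher. The lysozyme gene Lyz1 had a log2 fold change of -3.94 and its near copy Lyz2, which has far more counts, one of -0.17, a call that was lost under 7 of 17 alternatives, and reads shared between the copies make their split uncertain.

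Of 20 growth factor and cytokine receptor genes, 7 were higher in dura and 7 lower. Tgfbr1 stood at 530, 538 and 536 CPM in dura and at 228, 320 and 261 CPM in diaphragm (log2 fold change 0.97), and its partner Tgfbr2 (0.70) and Il13ra1 (0.73) were higher too. Csf2ra, a chain of the GM-CSF receptor (-0.64), the IL-4 receptor chain Il4ra (-0.63), the TNF receptor Tnfrsf1b (-0.74) and the decoy receptor Il1r2 (-3.70) were lower. Receptors that take up immunoglobulin G were higher where they passed. Fcgr1 stood at 369, 391 and 400 CPM in dura and at 104, 152 and 207 CPM in diaphragm, and Fcgr4 at 179, 201 and 184 CPM against 66.4, 90.7 and 111 CPM. That makes 2 of 7 Fc receptor genes, 6 of 7 with library totals. Among 27 scavenger and lectin receptor genes, 8 were higher, with Clec12a (0.91) and Clec4a2 (0.74) beside Mrc1, and 10 lower, with Cd207 (-4.51, lost with limma-voom), Clec4d (-2.82) and Colec12 (-2.21) beside Clec4e.

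Called genes of apoptotic cell uptake and of cholesterol efflux lay on both sides. Of 13 genes of apoptotic cell uptake, 4 were higher in dura and 2 lower, with a median log2 fold change of -0.06. Over all genes tested 8.9% were higher and 13.8% lower, and the 2 lower uptake genes are near that share. Axl, a receptor for Gas6 on dying cells, stood at 1860, 1920 and 1820 CPM in dura and at 948, 1110 and 1130 CPM in diaphragm (log2 fold change 0.80), and Mertk was higher by 0.58, a call lost without dura 3P6, dura 4P6, diaphragm 3 or diaphragm 6. Gas6 and the integrin chain Itgb5 (0.70) were the others higher, and Timd4 and the receptor Lrp1 (-0.70) were lower. Apoe, the lipoprotein through which macrophages export cholesterol, stood at 18800, 20500 and 19200 CPM in dura and at 6890, 7660 and 9320 CPM in diaphragm (log2 fold change 1.28 ± 0.0896, edgeR adjusted p = 2.74e-06). The exporters Abca1 (0.70) and Abcg1 (0.67) were higher with it, whereas the sterol sensor Nr1h3, which encodes LXR alpha, was lower (-1.04), as were Apoc1 (-2.98), Srebf1 (-0.65) and Mylip (-0.51, lost with library totals and without dura 1P6, dura 4P6 or diaphragm 6). That makes 3 of 11 cholesterol efflux genes higher and 4 lower (2 without dura 1P6), with a median log2 fold change of -0.25. Cholesterol synthesis genes were lower, 15 of 22, with a median log2 fold change of -0.96. Fdps, which makes farnesyl pyrophosphate, had a log2 fold change of -1.62, and Fdft1, which makes squalene from it, one of -1.47.

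Glycolysis genes were lower in dura, and oxidative phosphorylation genes were not called. Of 17 glycolysis genes, 12 were lower and 1 (Hk3) higher, the latter lost under 9 of the alternatives. Slc2a1, the glucose transporter GLUT1, stood at 38, 50.7 and 37.4 CPM in dura and at 168, 189 and 175 CPM in diaphragm (log2 fold change -2.09). The hexokinase gene Hk2 (-1.35), Pfkp (-1.31) and the lactate exporter Slc16a3 (-2.30) followed. Of 19 oxidative phosphorylation genes, 0 were called by edgeR, 4 had an unadjusted p below 0.05, DESeq2 called 1, limma-voom 0 and edgeR with library totals 3. The tissues did not overlap in 8 of the 19, close to the share of 41.2% over all genes tested. Of 14 hypoxia response genes 8 were lower, with Vegfa at 22.8, 42.4 and 27.7 CPM in dura and at 128, 135 and 119 CPM in diaphragm. Of 16 growth factor genes 8 were lower, among them the EGF receptor ligands Areg (-4.43) and Hbegf (-2.24).

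Immediate early genes, which cells switch on within minutes of many stimuli, were separated in both directions. Of 25 immediate early genes, 7 were higher in dura and 11 lower. Fos stood at 6160, 5330 and 5970 CPM in dura and at 3060, 3030 and 2770 CPM in diaphragm (log2 fold change 0.96), and Jun (1.11), Egr1 (0.56) and Btg2 (0.87) were higher too. Nr4a3 stood at 39.9, 117 and 60.5 CPM in dura and at 699, 802 and 588 CPM in diaphragm (log2 fold change -3.28 ± 0.32), and Fosl1 (-4.72), Nr4a2 (-2.37) and Maff (-1.94) were lower. Of 14 heat shock genes 11 were lower in dura, with Hspa1b at 118, 136 and 115 CPM in dura and at 619, 868 and 717 CPM in diaphragm. Hspa1a and Hspa1b are near-identical copies, so their split is uncertain. The same direction was seen outside these 6 libraries, where Hspa1b stood at 29.8 to 39.6 CPM in dura and at 297 to 550 CPM in diaphragm. The called heat shock genes were thus lower in dura, as were the called cytokine genes and most NF-kappaB genes. The immediate early genes did not share 1 direction with them. The part of tissue handling in all these differences was not tested.

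Lineage transcription factors were mostly lower. Of 28 tested, 15 were lower in dura and 3 higher. Irf4, a factor of dendritic cells and of IL-4 responses, stood at 20.1, 23.4 and 24.4 CPM in dura and at 144, 155 and 130 CPM in diaphragm (log2 fold change -2.67). Maf, a factor of macrophage identity, stood at 632, 721 and 726 CPM in dura and at 376, 289 and 487 CPM in diaphragm (log2 fold change 0.84). Bhlhe40 (-2.77) was lower, and Cebpb (-1.72) was lower with diaphragm 6 at 271 CPM near the highest dural value of 224 CPM. Irf8 (0.56) and Mef2c (0.71) were the others higher. Genes induced by IL-4 and IL-13 were split, 9 of 16 lower and 3 higher: beside Retnla, Tgm2 was lower (-2.48), and the galactose lectin Mgl2 was higher (0.56).

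**Figure D4:**
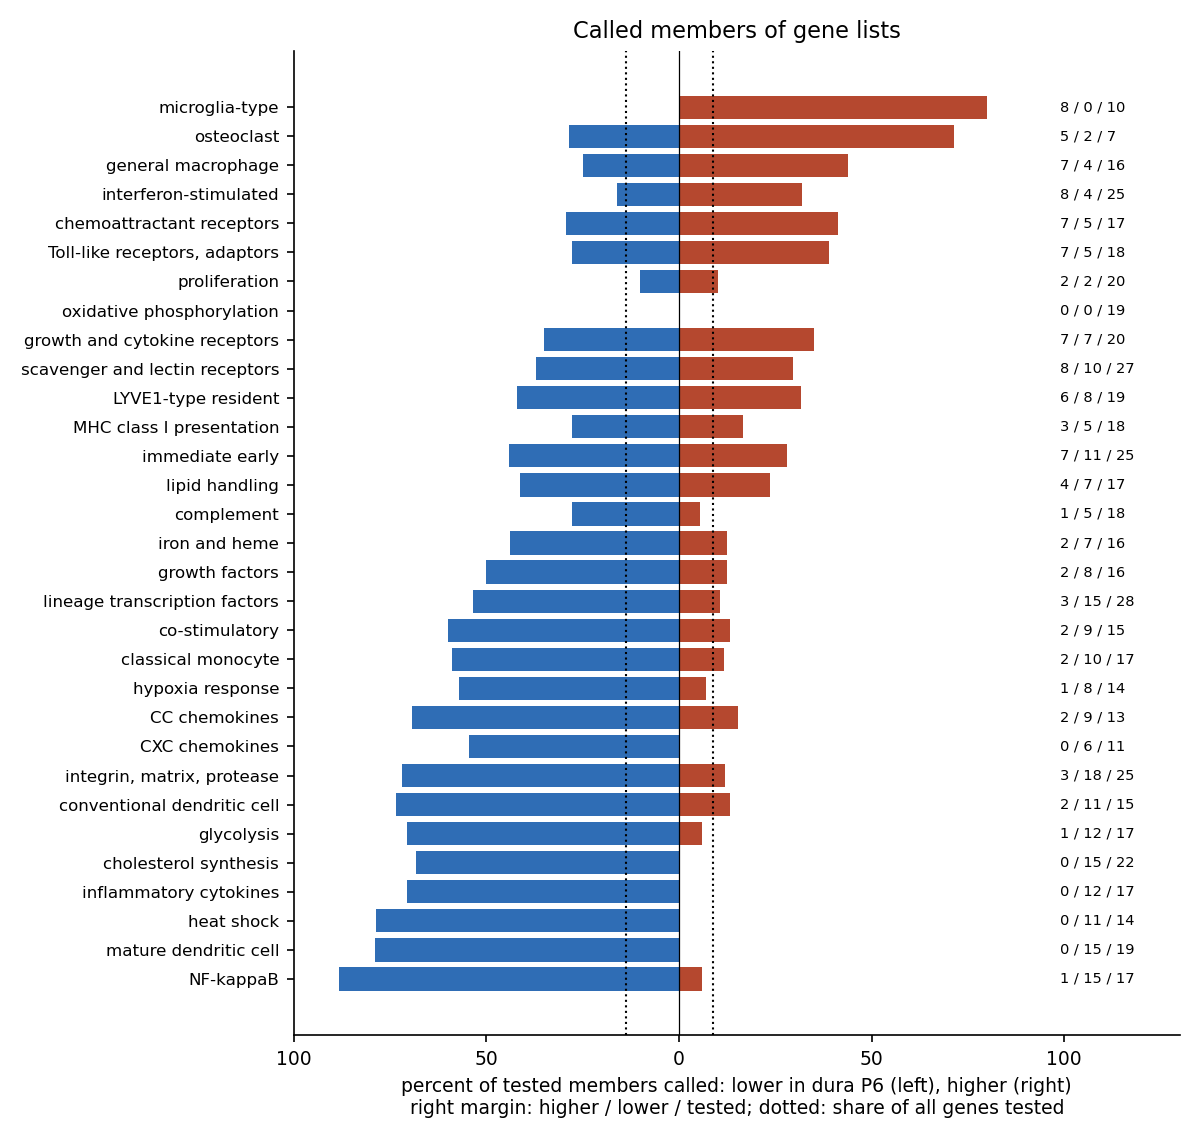
Share of tested members of gene lists called lower (blue, to the left) or higher (red, to the right) in dura P6, in percent, with the counts at the right margin and the share of all genes tested as dotted lines (13.8% lower, 8.9% higher). A selection of the 55 lists is shown. The NF-kappaB list has 15 of 17 members lower and the microglia-type list 8 of 10 higher.

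RNA known from other cell types differed between the tissues in the same 6 libraries. Of 14 skeletal muscle genes 11 were tested and 10 were lower in dura, with a summed level of 8.33 to 11.8 CPM in dura and 237 to 359 CPM in diaphragm. Mb, myoglobin, had 0 counts in the dural libraries and 43.9, 35.8 and 31.2 CPM in diaphragm, at least 489-fold higher when 3 counts over the dural libraries are taken as the limit. Of 11 liver genes 9 were lower, with Alb at 0.0834, 0 and 0 CPM in dura and at 181, 271 and 496 CPM in diaphragm. The other 2, Ttr (log2 fold change 6.41) and Trf (0.43), were higher in dura. The liver list summed to 3070, 103 and 117 CPM in dura 1P6, 3P6 and 4P6. In diaphragm 3, 6 and 9 it summed to 325, 469 and 772 CPM. Ahsg and Serpina3k, also made by liver, had 0 counts in dura and were at least 289-fold and 269-fold higher in diaphragm. The call of Alb was lost with limma-voom (adjusted p 0.0774), and liver and muscle RNA was also present in the other diaphragm libraries, at 273 to 534 CPM for Alb. With at least 10 CPM required in 3 libraries, fewer genes were tested, and those called lower in dura fell to 5 muscle and 4 liver genes.

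Some genes of the meninges and of bone were higher in dura. Ptgds, the prostaglandin D synthase of arachnoid cells, stood at 32, 17.1 and 14.9 CPM in dura with 0 counts in diaphragm 3, 6 and 9, at least 419-fold higher against 3 counts over those libraries. Of 9 meningeal genes tested, 6 were higher (2 with the filter of 10 CPM) and 2 lower, and their summed level of 101 to 133 CPM in dura was below the 134 to 137 CPM of diaphragm, where Aldh1a2, which dendritic cells also express, stood at 77.6 to 86 CPM. Shisa3 (26.8, 35.3 and 19.8 CPM) and the bicarbonate transporter Slc4a10 (47.8, 9.73 and 6.19 CPM) were at 1.1 CPM or less in diaphragm. The bone gene Alpl stood at 13.5, 12.5 and 13.3 CPM in dura and at most at 0.601 CPM in diaphragm. Of 6 bone genes tested 3 were higher (Alpl, Ibsp and Sp7; 1 with the filter of 10 CPM), and the list summed to 143 to 205 CPM in dura and 159 to 280 CPM in diaphragm. Of 7 osteoclast genes 5 were higher, among them Atp6v0d2, a proton pump subunit (3.54), and Acp5 (1.2). The other 2, the fusion proteins Dcstamp (-1.33) and Ocstamp (-1.27), were lower, and neither was called with all libraries in one fit. Single libraries stood apart: Ttr, made by choroid plexus and liver, had 2980 CPM in dura 1P6 against 12.1 and 22.1 CPM in the other dural libraries, and its call was lost without dura 1P6, without any 1 of the 3 diaphragm libraries and with both limma fits.

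Blood and stromal cell markers were mostly low. The fibroblast list summed to 256 to 411 CPM in dura and 307 to 823 CPM in diaphragm, with Col3a1 at 198, 46.3 and 89.6 CPM in diaphragm and 4 of 12 genes lower in dura. Of 12 endothelial genes 0 were called by edgeR, 2 had an unadjusted p below 0.05, and DESeq2 and limma-voom called 0. Vwf, which endothelium and platelets express, had 255 CPM in dura 3P6 and 7.59 and 15.2 CPM in the other dural libraries. Cd3e reached at most 1.26 CPM in any of the 6 libraries, and the NK cell receptor gene Ncr1 was at 0 in all 6. Of 4 NK and innate lymphoid cell genes tested, Il7r (-2.17) and Klrk1 (-0.85) were lower in dura. Under some alternatives only 1 of the list was lower. The neutrophil genes S100a8 and S100a9 had 9.11 and 10.3 CPM in dura 3P6 and at most 0.5 CPM elsewhere among the 6, and the mast cell gene Cpa3 had 18.4 CPM in diaphragm 6 and at most 1.08 CPM elsewhere. Of 6 mast cell and basophil genes tested, Kit (-4.08) and Hdc (-2.65) were lower in dura, and only 1 was under some alternatives. That list summed to 4.38 to 7.09 CPM in dura and to 24.4, 93.1 and 18.1 CPM in diaphragm 3, 6 and 9. Of 12 B cell genes 3 were tested, and Ebf1, Cd79b and Ighm were all higher in dura. Cd79b stood at 39.3, 44.7 and 44.7 CPM in dura and at 10.4, 19.5 and 20.3 CPM in diaphragm, and Ighm at 380, 396 and 402 CPM against 332, 253 and 241 CPM, the last a call lost without dura 4P6 or diaphragm 6. Ebf1 was near the threshold (edgeR adjusted p = 0.0392) at 5.34, 6.38 and 5.25 CPM in dura and 1.63, 0.3 and 1.77 CPM in diaphragm, and of the 3 calls 1 was left without dura 4P6. The part of other cells in the macrophage differences was not tested.

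**Figure D5:**
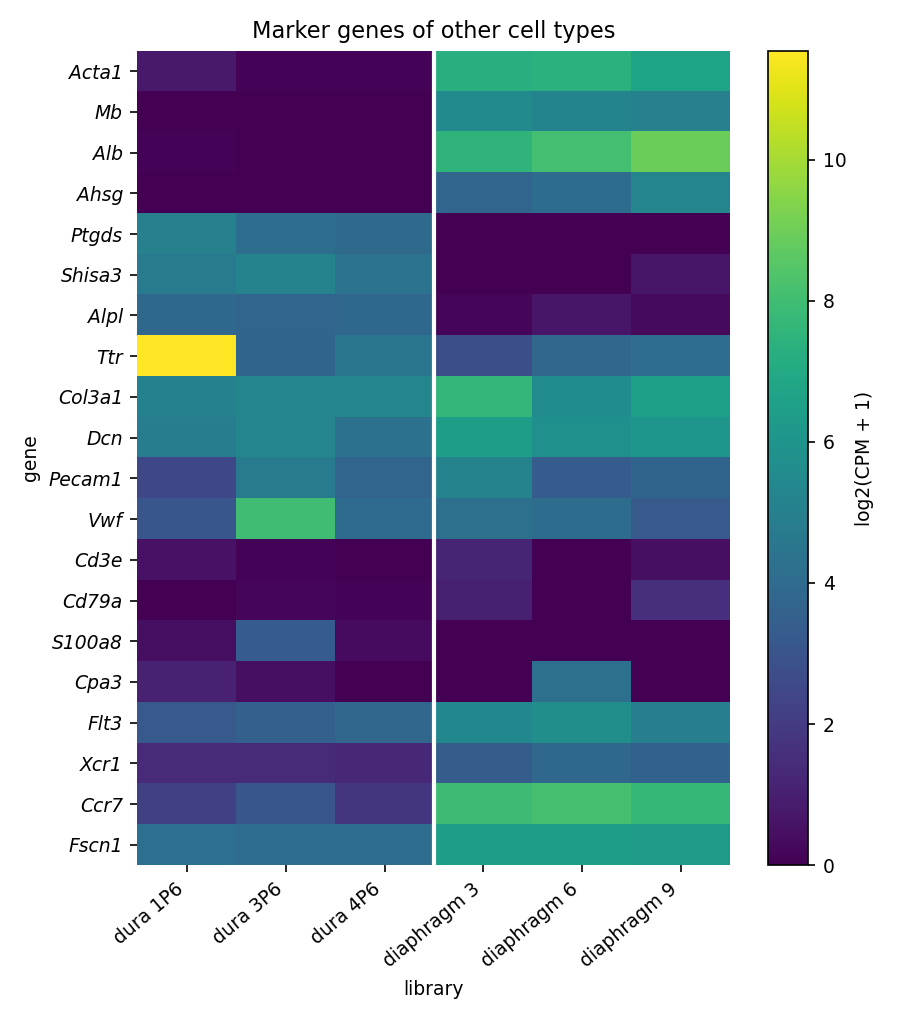
Level of marker genes of other cell types in the 6 libraries, as log2(CPM + 1) by colour, with dura to the left of the white line. Muscle (Acta1, Mb) and liver (Alb, Ahsg) genes appear in all 3 diaphragm libraries, Ptgds and Shisa3 in all 3 dural libraries, Ttr in dura 1P6 and Vwf in dura 3P6.

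The libraries outside the comparison show each direction in cells with less Ccr2 and MHC class II RNA. They were part of the same ranking of levels and come from the same tissues, so they are no separate test of the directions. The dural ones carry the same numbers 1, 3 and 4 as P6. No label says whether a number marks a shared animal or preparation, so they may not be independent. Of the 1123 genes higher in dura P6, 467 (41.6%) were also higher in all other dural than in all other diaphragm libraries, and 4 were lower in all of them. Of the 1742 lower genes, 829 (47.6%) were also lower in all, and 7 were higher. Over all 12618 genes tested, 8.28% were higher and 10.6% lower in all other dural than in all other diaphragm libraries. Cxcl1 is one of the 829 genes also lower in all, at 26.6 to 59.5 CPM in the other dural and 396 to 506 CPM in the other diaphragm libraries. Aldh1a2, which makes retinoic acid, is not: it stood at 9.25, 11.6 and 6.06 CPM in dura P6 and at 86, 80.6 and 77.6 CPM in diaphragm 3, 6 and 9, but at 10.2 to 52.5 CPM in the other dural and 3.25 to 12.6 CPM in the other diaphragm libraries. Whether the tissue difference itself differs between these libraries and the rest was not tested, because the comparison would rest on the levels that chose the libraries.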

How the data were processed

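The authors deposited whole-number counts per gene for 41388 genes in 24 columns, under a name that calls them normalized counts. They were read here as raw counts since the values are whole. Column totals also differ, which normalized counts can do too. Per the submitters' processing notes, STAR 2.4.0j, featureCounts, DESeq2 1.20.0 and GRCm38 were used, with no role given. Per the labels' protocols, reads were single-end from an unstranded kit, so sense and antisense genes that overlap share reads. Columns with the prefix mar differed from those of the same number by about sampling noise (chi-square over degrees of freedom 1.008 to 1.169, against at least 10.56 for other pairs) and were summed, and 2 columns with under 10000 counts were left out. The 6 libraries were compared with edgeR 4.0.16 (R 4.3.3): filterByExpr, TMM factors over the 6, quasi-likelihood test, two-sided, Benjamini-Hochberg adjustment. Printed CPM use TMM factors over all 16 libraries. Symbols were found for 40254 genes, and coordinates come from GENCODE. Limits from a count of 0 cover counting error only. Tested on simulated counts of this comparison (12211 genes), the script recovered 70 of 100 genes set to a log2 change of 1 and 96 of 100 set to 2, and called 3 unchanged genes.

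The libraries and the 55 gene lists were chosen with earlier results of these data known. Named genes were a panel of identity genes, the 10 highest and 10 lowest fold changes without overlap and with at least 20 CPM in both tissues, the 5 highest and 5 lowest with at least 20 CPM in the higher tissue, and up to 4 called members of each list and direction with at least 10 CPM, plus members given by their values. Apoc1, Ebf1, Fscn1, Ibsp, Il1b, Il4ra, Sp7, Tlr4, Tnf and Nfkbia were named after their values were seen. A few genes that the rule picks are not reported here. Alternatives tried were upper-quartile and RLE factors or none, limma 3.58.1 (voom, and log2(CPM + 1), pseudocount 1), DESeq2 1.42.0, filters, all libraries in one fit, single runs, and each library left out.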

Additional observations from a re-analysis of the deposited data

Results flagged for a closer look

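Among the named genes, 3 separated dura P6 from diaphragm 3, 6 and 9 in one direction and the other libraries in the opposite one. The other libraries were set side by side as dura P5 with diaphragm 2 and 8, and dura P4 with diaphragm 1 and 7, sets that the labels do not define. The difference was not tested, because the same levels chose the libraries. Acp5, the tartrate-resistant acid phosphatase of osteoclasts and some macrophages, was higher in dura P6 (171, 218 and 167 CPM) than in diaphragm 3, 6 and 9 (56.1, 77.1 and 106 CPM), a log2 fold change of 1.2. It was lower in dura P5 (54.5 to 58.1 CPM) than in diaphragm 2 and 8 (325 and 377 CPM), and lower in dura P4 (25.3 to 50.6 CPM) than in diaphragm 1 and 7 (63.7 and 99.8 CPM). Ccna2, a cyclin of the S and G2 phases, had a log2 fold change of 0.955, with 34.7, 29 and 24.1 CPM in dura P6 and 13.9, 13.3 and 17.5 CPM in diaphragm 3, 6 and 9. Its levels were 5.61 to 7.27 CPM in dura P5 against 9.67 and 12.8 CPM, and 1.63 to 4.49 CPM in dura P4 against 6.6 and 5.78 CPM. Mbp, a myelin gene with a splice form in blood cells, had a log2 fold change of -0.588, with 74.9, 67.3 and 80.9 CPM in dura P6 and 109, 110 and 112 CPM in diaphragm 3, 6 and 9. It stood at 55.4 to 63 CPM in dura P5 against 33.2 and 39 CPM, and at 50.7 to 66.6 CPM in dura P4 against 39.3 and 43 CPM.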

How the results depend on the processing

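The number of genes called lay between 1930 (without dura 4P6) and 3568 (all libraries in one fit), against 2865 as reported. Genes higher in dura numbered 2176 with library totals and 1813 with all libraries in one fit, where they made up 62.9% and 50.8% of the called genes, against 1123 and 39.2%. Leaving out 1 library at a time gave 630 to 1104 genes higher in dura, with 723 without dura 1P6, 718 without dura 3P6 and 630 without dura 4P6, and 1300 to 1674 lower. Under the other alternatives the counts stayed within 1.5 times those reported. Of 237 named genes tested, 37 lost their call in at least 1 of 17 alternatives. Lyz2 changed direction with library totals (0.0145, adjusted p = 0.842 in edgeR), where the median of all genes moved to 0.215, and the cause was not tested. Genes with few counts limit the smaller fold changes: diaphragm 6 had 1 run and 11053351 counts, and diaphragm 3 had 30132295. No paired analysis was possible because the column numbers of the tissues (1, 3 and 4 against 3, 6 and 9) share only 1 number, and no label says that it marks a shared animal or day.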

Other observations

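Genes of prostaglandin and leukotriene metabolism were divided. Of 13 eicosanoid genes, 5 were lower in dura P6 and 2 higher. Ptgs2, which encodes cyclooxygenase-2, stood at 253, 490 and 402 CPM in dura and at 1040, 1360 and 1350 CPM in diaphragm (log2 fold change -1.72), and the 5-lipoxygenase gene Alox5 at 105, 100 and 107 CPM against 253, 208 and 232 CPM. Hpgd, which inactivates prostaglandins, stood at 333, 330 and 350 CPM in dura and at 145, 156 and 193 CPM in diaphragm (log2 fold change 1.02), and the prostaglandin D synthase Hpgds was higher by 1.03. The sets did not overlap in any of these 4 genes, as in nearly all called genes.

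Of 16 iron and heme genes, 7 were lower in dura and 2 higher. Hmox1, the heme oxygenase, stood at 218, 277 and 222 CPM in dura and at 644, 633 and 554 CPM in diaphragm (log2 fold change -1.37). Complement genes split 1 higher to 5 lower of 18, and 5 were higher with library totals. C3, the central component, stood at 113, 204 and 238 CPM in dura and at 376, 276 and 602 CPM in diaphragm, and properdin, Cfp, at 344, 358 and 348 CPM against 738, 674 and 724 CPM. Of 16 clock genes, 3 were higher and 4 lower: the repressor Nr1d1 stood at 19.3, 28.2 and 26.1 CPM in dura and at 9.57, 13.6 and 9.14 CPM in diaphragm, and Cry1, another repressor, at 4.58, 7.94 and 4.38 CPM against 23.3, 22.2 and 21.7 CPM. The labels give no time of day for the collection of tissue.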
